A study of Mus musculus with 12 samples.

Results

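The imprinted Dlk1-Dio3 region of mouse chromosome 12 encodes one of the largest groups of miRNAs in the mammalian genome, and 38 mature miRNA probe sets listed for this region were followed here in mouse ventricle. The members were taken by their miRBase accession numbers, and each of the 38 was present among the 1908 mature miRNA probe sets (of 3163 probe sets in all) of the deposited table. The table covers 12 C57Bl/6J hearts, taken at zeitgeber time 6, in the light phase, and frozen in liquid nitrogen, in 4 groups of 3 labelled as biological replicates. The groups were Clock mutant hearts of 21 months, wild-type (WT) hearts of 21 months, Clock mutant hearts of 4 months and WT hearts of 4 months, and the mutants were homozygous for the delta 19 allele of Clock. The series' own text calls the mutants transgenic, and the labels describe the tissue as ventricular and name no further allele. The CLOCK protein drives the daily clock of the cell by binding DNA together with BMAL1, and the delta 19 protein impairs activation of their target genes. The design sets genotype against age at a single time of day.

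Imprinting means that one parental copy of a gene is silent. Within this region the protein-coding genes Dlk1, Rtl1 and Dio3 are expressed from the paternal chromosome, and a run of long noncoding RNAs, Meg3, Rian and Mirg, from the maternal one. The miRNAs are processed from these maternal transcripts, including the strand opposite Rtl1, and so derive from a shared transcriptional programme. They are abundant in embryo, placenta and brain, and lower in most adult tissues.

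In the RefSeq tables (build GRCm38.p6) 58 miRNA hairpins lie between Dlk1 and Dio3, 54 of them on the plus strand, with 113 mature miRNAs of distinct name. Of these hairpins 15 lie within the span of Rtl1, 10 within Mirg, 3 within Rian and 1 within Meg3, and 36 form the dense run that starts at Mir379 and ends at Mir410. None of the tables used pairs a miRBase accession with a miRNA name (0 matches), so the values below belong to accession numbers. No sequence could be assigned to a single probe set, and whether each listed accession lies in the region was not checked against the files. The sequences of the region itself show what kind of family the members come from. They are printed 5′ to 3′ with the seed, bases 2 to 8, in capitals. The seed is the stretch that pairs with target messages. The first 4 lie on the maternal strand opposite Rtl1:
mmu-miR-433-3p, chr12:109591781-109591802, plus strand: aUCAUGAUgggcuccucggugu
mmu-miR-127-3p, chr12:109592888-109592909, plus strand: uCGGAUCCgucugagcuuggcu
mmu-miR-434-3p, chr12:109594565-109594586, plus strand: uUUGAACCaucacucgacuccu
mmu-miR-136-5p, chr12:109595331-109595352, plus strand: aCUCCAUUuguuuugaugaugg
Each of these 4 has a seed that no other mature miRNA of the region carries. The next 4 come from the run that starts at Mir379 and show pairs with a common seed:
mmu-miR-379-5p, chr12:109709065-109709085, plus strand: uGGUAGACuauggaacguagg
mmu-miR-1193-5p, chr12:109715716-109715735, plus strand: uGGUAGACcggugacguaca
mmu-miR-379-3p, chr12:109709102-109709123, plus strand: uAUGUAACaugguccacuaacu
mmu-miR-411-3p, chr12:109710225-109710246, plus strand: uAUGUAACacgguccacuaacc
The 2 arms of the Mir379 hairpin therefore share seeds with different neighbours. The same run also holds these pairs with a common seed:
mmu-miR-494-5p, chr12:109715334-109715355, plus strand: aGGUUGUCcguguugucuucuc
mmu-miR-410-5p, chr12:109743729-109743749, plus strand: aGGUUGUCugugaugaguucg
mmu-miR-376c-5p, chr12:109722733-109722754, plus strand: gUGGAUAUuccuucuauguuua
mmu-miR-376b-5p, chr12:109723471-109723492, plus strand: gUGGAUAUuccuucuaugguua
Mature miRNAs with near-identical sequence can share signal on an array, and the last pair differs at 1 base. Whether the miRNAs printed here are among the members followed could not be told. Altogether the 113 mature miRNAs carry 104 distinct seeds, of which 9 are shared by more than 1 miRNA (18 miRNAs).

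CLOCK and BMAL1 bind the E-box, whose core form reads CACGTG and is its own reverse complement. Across the 6 promoter windows that RefSeq starts give for Dlk1, Meg3 (2 windows), Rian, Mirg and Dio3 (250 bases before to 50 after the start), 0 held these letters, against 7.15% of all 32851 windows of this length. This says only that these letters are absent from these windows.

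Values are given on a scale taken as log2, each relative to that probe set's own median over the 12 hearts. They show in which hearts a miRNA was high or low, and they carry no absolute level, so levels of different members cannot be ranked. Whether a member was above background is unknown. In whole ventricle, fewer cells of a type and less RNA per cell cannot be told apart. The tissue and the Clock genotype could not be checked from these values, because markers could not be named and Clock is not a miRNA. Array medians over the mature probe sets lay between -0.020 and 0.030, and no 2 arrays held identical values.

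Members of the cluster varied more between hearts than most mature probe sets. Their SD over the 12 hearts had a median of 0.454, against 0.272 over all 1908 mature probe sets, and 20 of 38 lay above 0.433, the upper quartile of all. Within groups the median SD was 0.395 for the members and 0.264 for all mature probe sets. A fixed cut on a difference, such as 0.5 used below, is therefore easier for the members to pass in either direction. How much this adds to their counts was not tested. The range among members was wide. MIMAT0003128_st was the most variable, from -1.76 to 1.44 (SD 0.980), and MIMAT0000148_st the least, from -0.16 to 0.29 (SD 0.147). Both were picked out after their values were seen.

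One old mutant heart stood apart in these miRNAs. In Clock 21-month replicate 2 the median of the 38 members was 0.41, and 30 of 38 (78.9%) lay above their own median, against 51.6% of all mature probe sets on that array. That heart held the highest of the 12 values for 14 members (36.8%), and for 15.9% of all mature probe sets. Its SD over all mature probe sets, 0.521, was also the largest of the 12 arrays. Clock 21-month replicates 1 and 3 had member medians of 0.035 and -0.0032. The WT hearts of 21 months had member medians of -0.13, -0.11 and -0.079, with 13, 10 and 17 of 38 members above 0. In the 6 young hearts the member medians ran from -0.0996 in WT 4-month replicate 2 to 0.11 in WT 4-month replicate 1. Where a median difference, or a count of differences over 0.5 or under -0.5, moved by over 1.5 times without Clock 21-month replicate 2, it is given without it too. An earlier analysis of these data set apart 3 other arrays (replicate 2 of the WT and replicates 2 and 3 of the Clock hearts of 4 months), and counts without them stand with the other alternatives at the end.

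**Figure D1:**
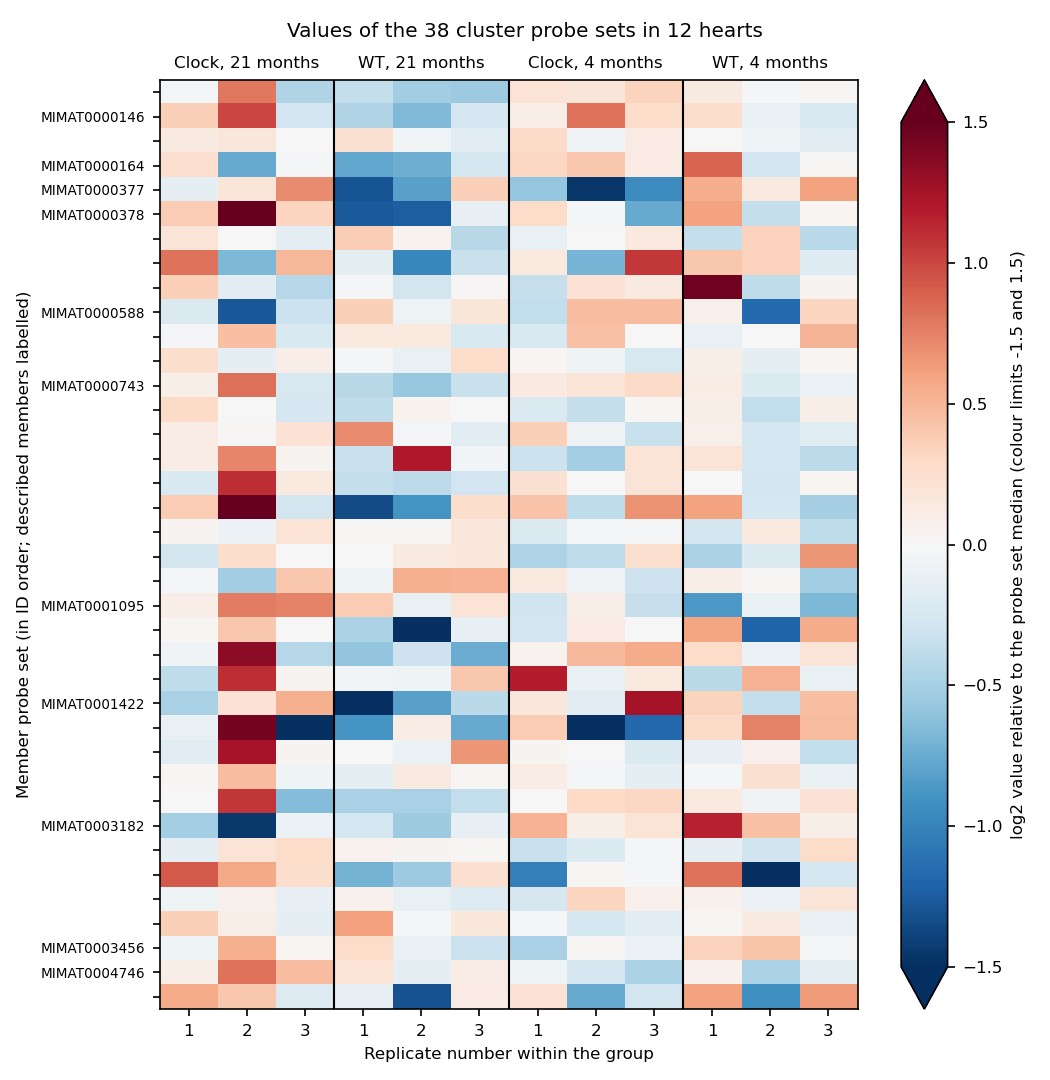
Values of the 38 members (rows, in ID order, described members labelled) in the 12 hearts (columns, by group and replicate), as log2 relative to each probe set's median, in red above and blue below it. Clock 21-month replicate 2 is the reddest column, with 30 of 38 members above 0, and WT 21-month replicate 2 has the fewest, 10.

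At 21 months the members leaned higher in Clock hearts, without any passing the test. Differences between Clock and WT were above 0 for 31 of 38 members, where 51.2% of all mature probe sets were, and their median was 0.19, against 0.0045 over all. In limma's moderated test with Benjamini-Hochberg adjustment over the 1908 mature probe sets, 0 members were called (0% of all were called). The smallest adjusted p among members was 0.561. At an unadjusted p under 0.05, 8 members were higher in Clock and 0 lower, where 3.25% of all probe sets were higher and 2.62% lower (5.87% in either direction). Of these 8, 6 were among 7 members that varied together from heart to heart, described further on, and 2 were among the other 31. A difference over 0.5 was seen for 14 members (36.8%, against 5.66% of all), and one under -0.5 for 1 (2.63%, against 5.40% of all). The members' larger spread within groups makes such a cut easier for them to pass.

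MIMAT0000378_st had the largest difference and the smallest p. It was at 0.38, 1.63 and 0.32 in Clock hearts of 21 months, against -1.26, -1.24 and -0.12 in WT hearts of 21 months. Every Clock heart lay above every WT heart. The means were 0.78 ± 0.74 in Clock and -0.87 ± 0.65 in WT (SD, n = 3 each), a difference of 1.65 (SE 0.44, limma, adjusted p = 0.561), or 3.14-fold, and 1.23 without Clock 21-month replicate 2.

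MIMAT0000743_st was next. Its values were 0.090, 0.83 and -0.24 in Clock hearts of 21 months, against -0.41, -0.57 and -0.33 in WT hearts of the same age. The groups did not overlap, although the lowest Clock heart and the highest WT heart were close. The difference was 0.67 (SE 0.23, limma, adjusted p = 0.789), or 1.59-fold, and 0.37 without Clock 21-month replicate 2. In all, 5 members had every Clock heart above every WT heart (13.2%, against 6.03% of all), and 1 the reverse (2.63%, against 4.87% of all).

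The lean towards higher values in Clock held less widely without single hearts. Without Clock 21-month replicate 2, 26 of 38 differences were above 0 with a median of 0.093, and 4 members were higher at an unadjusted p under 0.05 (3.72% of all). The 14 members with a difference over 0.5 then numbered 9 (7.23% of all), and 0 were under -0.5 (4.19% of all). The median was 0.34 without Clock 21-month replicate 1. The count at an unadjusted p under 0.05 was 3 without WT 21-month replicate 1 or replicate 2. Leaving out Clock 4-month replicate 1, which enters only the shared spread, gave 5. Of all mature probe sets, 4.4% to 7.65% had such a p in either direction when each heart was left out. For 19 of 38 members a change of 2-fold lay outside the 95% interval on both sides, against 76.6% of all mature probe sets, and the intervals of the members had a median half-width of 0.650.

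At 4 months the members lay on both sides of 0 in near-equal number. Differences between Clock and WT were above 0 for 18 of 38 members (50.1% of all), with a median of -0.011. None was called (limma, 0 of 38, 0% of all called; smallest adjusted p among members 0.647). At an unadjusted p under 0.05, 0 members were higher (2.94% of all) and 1 was lower (3.09% of all, 6.03% in either direction). A difference over 0.5 was seen for 0 members (4.61% of all) and one under -0.5 for 2 (5.92% of all). With each heart left out the median lay between -0.052 and 0.11. The members over 0.5 then numbered at most 4 (without WT 4-month replicate 1, 4.72% of all), and those under -0.5 at most 6 (without WT 4-month replicate 2, 9.17% of all). Every Clock heart lay above every WT heart for 2 members (5.35% of all) and below for 1 (5.77% of all). The total of 1 at an unadjusted p under 0.05 became 2 when any of 5 hearts was left out: Clock 4-month replicate 1, either of WT 4-month replicates 2 and 3, or either of Clock 21-month replicates 2 and 3. Of all mature probe sets, 4.45% to 7.6% had such a p when each heart was left out.

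That member was MIMAT0000377_st. It was at -0.58, -1.46 and -0.95 in Clock hearts of 4 months, against 0.55, 0.14 and 0.61 in WT hearts of 4 months. All 3 young Clock hearts lay below all 3 young WT hearts. The means were -0.998 ± 0.44 in Clock and 0.43 ± 0.25 in WT (SD, n = 3 each), a difference of -1.43 (SE 0.39, limma, adjusted p = 0.647), or 2.69-fold lower.

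MIMAT0003456_st had the next smallest p. Its values were -0.48, 0.016 and -0.092 in young Clock hearts, against 0.35, 0.41 and -0.016 in young WT hearts. The groups overlapped, and the difference was -0.43 (SE 0.22, limma, adjusted p = 0.807), or -0.29 without Clock 4-month replicate 1. A 2-fold change was excluded for 23 of 38 members, against 77.6% of all.

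**Figure D2:**
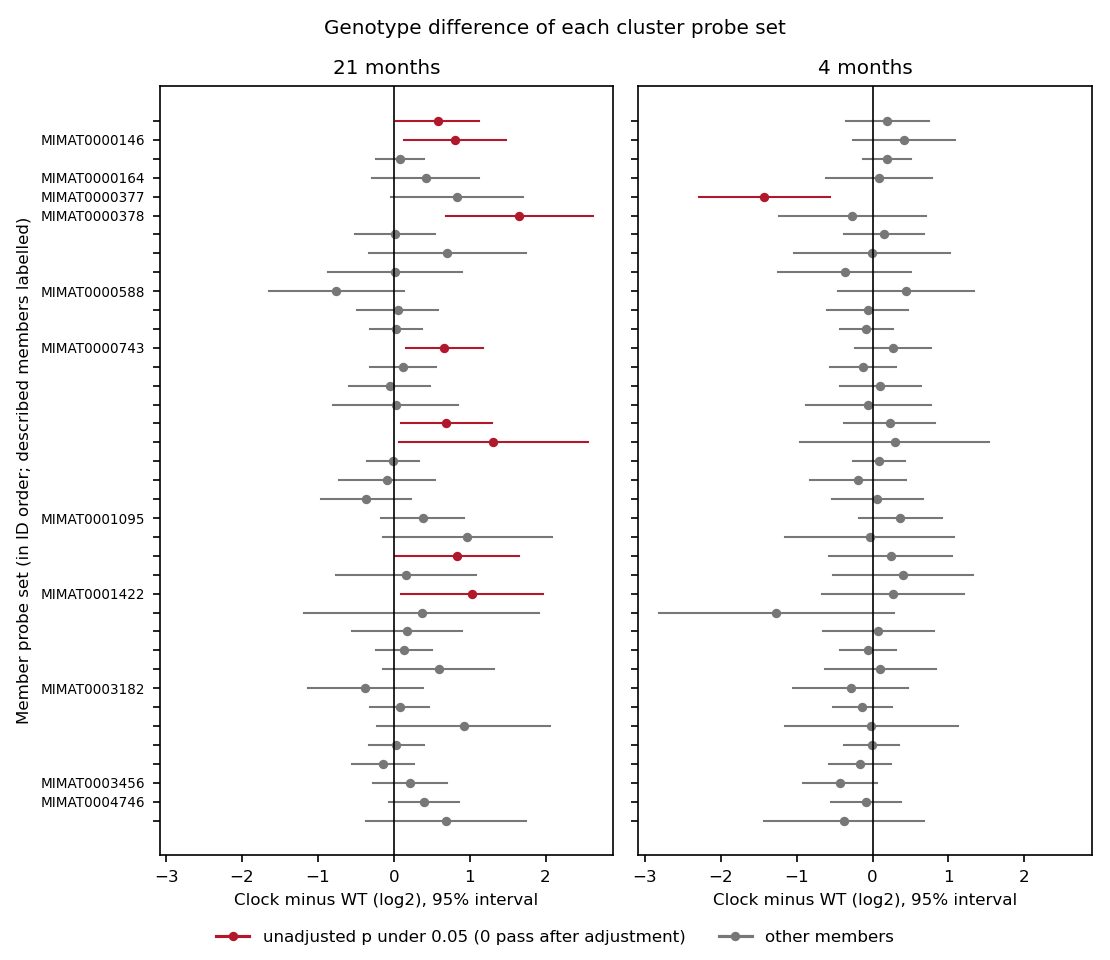
Difference between Clock and WT hearts for each of the 38 members (rows, in ID order) at 21 months (left) and 4 months (right), in log2 units with 95% intervals from limma, red where the unadjusted p is under 0.05. At 21 months 31 of 38 points lie to the right of 0, and at 4 months 18 do.

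Whether the genotype difference depends on age was tested directly as an interaction, the Clock-minus-WT difference at 21 months minus that at 4 months. It was above 0 for 30 of 38 members (51.0% of all), with a median of 0.30. The median was 0.078 without Clock 21-month replicate 2, with 25 above 0. No member was called (limma interaction, 0 of 38, 0% of all called; smallest adjusted p 0.538). Members with an interaction above 0 at an unadjusted p under 0.05 numbered 2 (2.57% of all), and 0 lay below it (1.62% of all, 4.19% in either direction). An interaction over 0.5 was seen for 11 members (9.54% of all) and one under -0.5 for 1 (8.54% of all). Those over 0.5 numbered 9 without Clock 21-month replicate 2 (11.3% of all), where 2 were under -0.5 (8.18% of all), and 17 without Clock 21-month replicate 3 (9.85% of all). The total of 2 was 4 without Clock 4-month replicate 1 or WT 4-month replicate 3, 5 without Clock 21-month replicate 3 or WT 4-month replicate 2, and 6 without Clock 21-month replicate 1. Of all mature probe sets, 3.3% to 5.66% had an unadjusted p under 0.05 when each heart was left out.

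MIMAT0000377_st had the smallest p here. To the values of the young hearts given above, the old hearts added -0.14, 0.18 and 0.71 in Clock, against -1.29, -0.81 and 0.36 in WT. The old Clock and WT hearts overlapped, with the old WT group the more spread (SD 0.85, against 0.43 in Clock). Its genotype difference was 0.83 at 21 months and -1.43 at 4 months, which differed by 2.26 (SE 0.55, limma, adjusted p = 0.538), and by 1.91 without WT 21-month replicate 1.

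For MIMAT0000378_st the young hearts were at 0.28, -0.033 and -0.76 in Clock, against 0.60, -0.35 and 0.033 in WT. These overlapped, unlike the old hearts. The genotype difference was 1.65 at 21 months and -0.27 at 4 months, an interaction of 1.92 (SE 0.62, limma, adjusted p = 0.972).

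MIMAT0000588_st had the opposite sign. It was at -0.22, -1.27 and -0.32 in old Clock hearts, against 0.36, -0.073 and 0.18 in old WT hearts, and these did not overlap. In young hearts it was at -0.37, 0.46 and 0.46 in Clock, against 0.073, -1.17 and 0.33 in WT, which did overlap. The interaction was -1.20 (SE 0.57, limma, adjusted p = 0.972), and -0.74 without WT 4-month replicate 2, whose -1.17 was far from the other young WT hearts. It was -0.19 without the 3 young arrays set apart earlier. The interaction intervals were wide, and excluded a 2-fold value for 12 of 38 members (58.1% of all).

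Averaged over both ages, 25 of 38 members were higher in Clock (51.7% of all), with a median difference of 0.10. None was called (limma, 0 of 38, 0% of all called; smallest adjusted p 0.589), and at an unadjusted p under 0.05, 4 were higher (2.88% of all) and 0 lower (3.25% of all, 6.13% in either direction). The averaged difference was over 0.5 for 5 members (2.62% of all) and under -0.5 for 0 (2.94% of all). The median was 0.068 without Clock 21-month replicate 2, and 2 members were over 0.5 (2.36% of all) and 1 under -0.5 (2.62% of all). Those over 0.5 numbered 10 without Clock 21-month replicate 3 (2.99% of all) and 8 without WT 4-month replicate 1 (2.99% of all). They numbered 3 without Clock 4-month replicate 3 (2.73% of all), and the median was 0.17 without WT 21-month replicate 1. The 4 at an unadjusted p under 0.05 became 8 without Clock 21-month replicate 3 and 2 without Clock 4-month replicate 1 or WT 21-month replicate 2. Of all mature probe sets, 5.56% to 8.07% had such a p in either direction when each heart was left out. MIMAT0000743_st, given above for old hearts, was at 0.15, 0.20 and 0.28 in young Clock hearts, against 0.12, -0.20 and -0.090 in young WT hearts. It was thus higher in each Clock heart than in each WT heart of the same age at both ages. The averaged difference was 0.47 (SE 0.16, limma, adjusted p = 0.589), from 0.67 at 21 months and 0.27 at 4 months. MIMAT0000146_st differed by 0.61 on average (SE 0.21, limma, adjusted p = 0.598). It was at 0.36, 0.997 and -0.29 in old Clock hearts, against -0.45, -0.66 and -0.25 in old WT hearts. In young hearts it was at 0.094, 0.81 and 0.27 in Clock, against 0.26, -0.094 and -0.23 in WT. The groups overlapped at each age.

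In WT hearts the members leaned lower at 21 months, without any passing the test, while the median of all mature probe sets was above 0. Differences between 21 and 4 months were above 0 for 15 of 38 members, against 54.9% of all, with a median of -0.13 for members and 0.032 for all. None was called (limma, 0 of 38, against 0.0524% of all; smallest adjusted p among members 0.701). At an unadjusted p under 0.05, 1 member was higher (4.09% of all) and 4 were lower (1.52% of all, 5.61% in either direction). A difference under -0.5 was seen for 13 members (34.2%, against 3.67% of all), and one over 0.5 for 1 (8.28% of all). This cut too is easier to pass for members, given their larger spread within groups. Every old WT heart lay below every young one for 9 members (23.7%, against 4.72% of all), and above for 0 (7.18% of all). These 9 included all but MIMAT0001090_st of the 7 members that varied together from heart to heart, described further on. The WT hearts of 21 months are the same ones that enter the genotype comparison at that age, so the 2 sets of differences are not independent.

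MIMAT0001422_st was at -1.60, -0.81 and -0.40 in WT hearts of 21 months, against 0.34, -0.36 and 0.46 in WT hearts of 4 months. All 3 old hearts lay below all 3 young ones, by a narrow gap at the closest. The difference was -1.08 (SE 0.42, limma, adjusted p = 0.737), or 2.12-fold lower. MIMAT0000377_st, with the WT values given above, overlapped between ages and differed by -1.01 (SE 0.39, limma, adjusted p = 0.737), and by -0.66 without WT 21-month replicate 1.

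MIMAT0001095_st went the other way. It was at 0.38, -0.11 and 0.20 in WT hearts of 21 months, against -0.86, -0.11 and -0.67 in WT hearts of 4 months. The lowest old heart and the highest young heart were nearly level. The difference was 0.70 (SE 0.25, limma, adjusted p = 0.701), or 1.63-fold.

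These counts moved with single hearts. The total of 5 with an unadjusted p under 0.05 was 0 without WT 4-month replicate 1. It was 1 when WT 21-month replicate 1 was left out. Leaving out WT 21-month replicate 2 or WT 4-month replicate 3 gave 2. It was 9 without WT 4-month replicate 2 and 10 without Clock 21-month replicate 2, an array that enters only the shared spread. Of all mature probe sets, 4.93% to 6.71% had such a p when each heart was left out. The 13 members with a difference under -0.5 numbered 8 without WT 4-month replicate 1 or WT 21-month replicate 2 (4.66% and 4.56% of all). When each heart was left out, 12 to 18 of 38 differences were above 0, and the median lay between -0.21 and -0.085. A 2-fold change was excluded for 16 of 38 members, against 76.3% of all.

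In Clock hearts 26 of 38 members were higher at 21 months, against 58.2% of all, with a median of 0.15 (0.049 for all). Without Clock 21-month replicate 2 the members' median was 0.0059, with 19 of 38 above 0, and without Clock 21-month replicate 3 it was 0.26. None was called (limma, 0 of 38, against 0.105% of all; smallest adjusted p among members 0.271). At an unadjusted p under 0.05, 3 were higher (6.18% of all) and 1 lower (3.67% of all, 9.85% in either direction). A difference over 0.5 was seen for 8 members (21.1%, against 10% of all), and one under -0.5 for 2 (5.14% of all). These numbered 5 (12.1% of all) and 4 (4.56% of all) without Clock 21-month replicate 2. Without Clock 4-month replicate 2 they numbered 5 (10.2% of all) and 3 (5.92% of all). The groups did not overlap for 4 members higher (9.12% of all) and 1 lower (5.71% of all) at 21 months.

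MIMAT0004746_st had the smallest p. It was at 0.10, 0.82 and 0.47 in Clock hearts of 21 months, against -0.070, -0.25 and -0.47 in Clock hearts of 4 months, with no overlap. The means were 0.46 ± 0.36 at 21 months and -0.27 ± 0.20 at 4 months (SD, n = 3 each), a difference of 0.73 (SE 0.21, limma, adjusted p = 0.271), or 1.66-fold.

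MIMAT0000377_st, with the Clock values given above, was higher in each old Clock heart than in each young one. Its difference was 1.25 (SE 0.39, limma, adjusted p = 0.296), or 2.38-fold, and 0.83 without the 3 young arrays set apart earlier, opposite in sign to that in WT hearts (-1.01). The interaction given above is the test of that contrast.

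MIMAT0003182_st was lower in old Clock hearts. It was at -0.51, -1.45 and -0.086 at 21 months, against 0.53, 0.089 and 0.21 at 4 months, with no overlap. The difference was -0.96 (SE 0.34, limma, adjusted p = 0.376), or 1.94-fold lower, and -0.57 without Clock 21-month replicate 2, which held its lowest value. A 2-fold change was excluded for 21 of 38 members, against 74.0% of all.

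**Figure D3:**
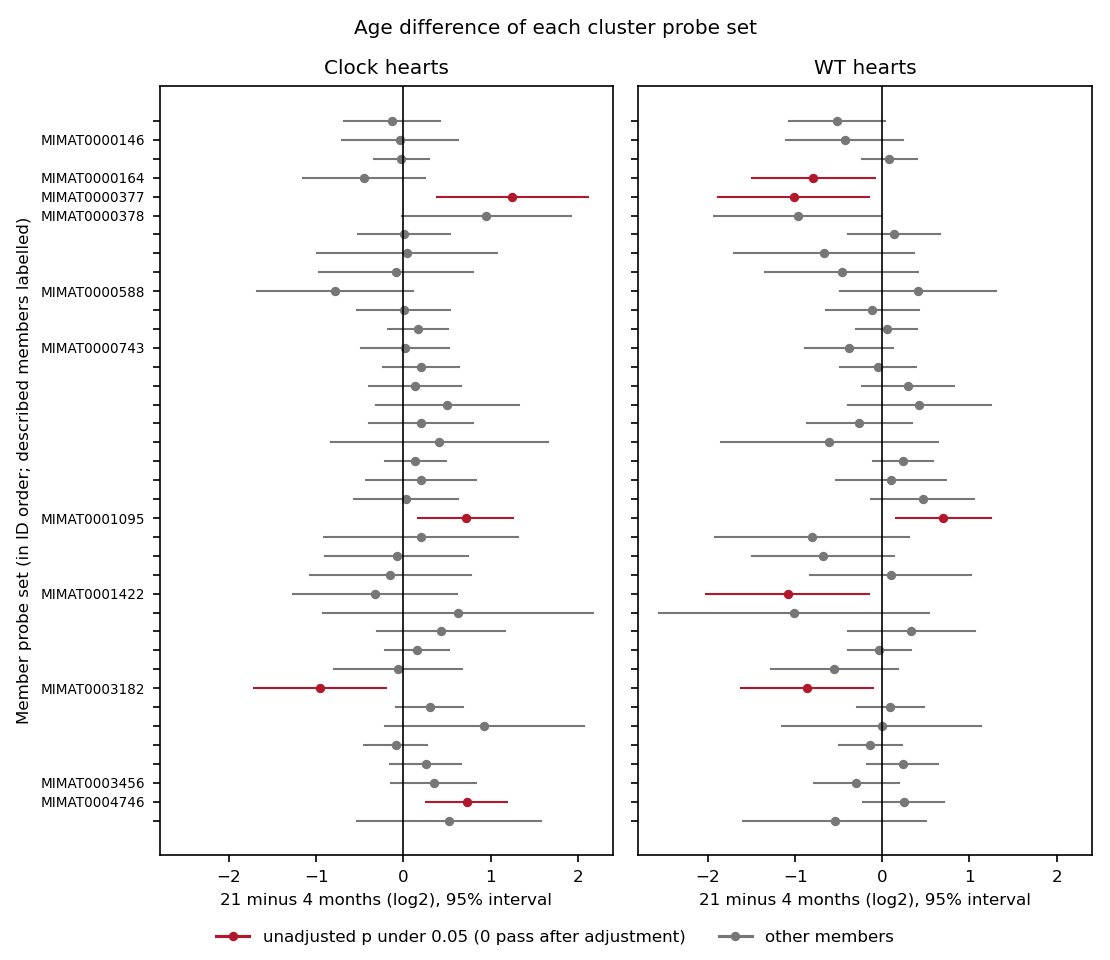
Difference between 21 and 4 months for each of the 38 members (rows, in ID order) in Clock hearts (left) and WT hearts (right), in log2 units with 95% intervals from limma, red where the unadjusted p is under 0.05. In Clock hearts 26 of 38 points lie to the right of 0, and in WT hearts 15 do.

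Averaged over genotypes, the age difference was above 0 for 18 of 38 members (58.0% of all), with a median of -0.0096. None was called (limma, 0 of 38, against 0.105% of all; smallest adjusted p among members 0.131), and at an unadjusted p under 0.05, 2 were higher (7.60% of all) and 3 lower (3.41% of all, 11% in either direction). The averaged difference was over 0.5 for 1 member (6.76% of all) and under -0.5 for 3 (2.36% of all). The median was -0.058 without Clock 21-month replicate 2, with 5 members under -0.5 (2.15% of all), and above 0 when any of 6 other hearts was left out, up to 0.080 without Clock 21-month replicate 3. The total of 5 was 8 without Clock 21-month replicate 2. Of all mature probe sets, 9.07% to 11.7% had an unadjusted p under 0.05 when each heart was left out. This contrast held the smallest adjusted p of any member.

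MIMAT0001095_st gave that value. To its WT values above, Clock hearts added 0.11, 0.76 and 0.74 at 21 months, against -0.30, 0.11 and -0.35 at 4 months. Its difference was 0.72 in Clock and 0.70 in WT, on average 0.71 (SE 0.18, limma, adjusted p = 0.131), or 1.63-fold. The average lay between 0.63 and 0.82 when each heart was left out. MIMAT0004746_st was at 0.21, -0.13 and 0.12 in WT hearts of 21 months, against 0.070, -0.48 and -0.13 in WT hearts of 4 months, which overlapped. Its averaged difference was 0.49 (SE 0.15, limma, adjusted p = 0.214), and 0.31 without the 3 young arrays set apart earlier.

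MIMAT0003182_st was at -0.26, -0.53 and -0.12 in WT hearts of 21 months, against 1.16, 0.44 and 0.086 in WT hearts of 4 months. With the Clock hearts above, all 6 old hearts lay below all 6 young ones, a pattern seen for this 1 member (2.63%) and 0.524% of all mature probe sets. The averaged difference was -0.91 (SE 0.24, limma, adjusted p = 0.150), or 1.88-fold lower, and lay between -1.06 and -0.72 when each heart was left out. MIMAT0000164_st was at 0.25, -0.76 and -0.013 in old Clock hearts and -0.78, -0.73 and -0.26 in old WT hearts, against 0.31, 0.40 and 0.12 in young Clock hearts and 0.87, -0.29 and 0.013 in young WT hearts. It overlapped between ages in both genotypes, with an averaged difference of -0.62 (SE 0.22, limma, adjusted p = 0.331). A 2-fold change was excluded for 29 of 38 members, against 87.5% of all.

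**Figure D4:**
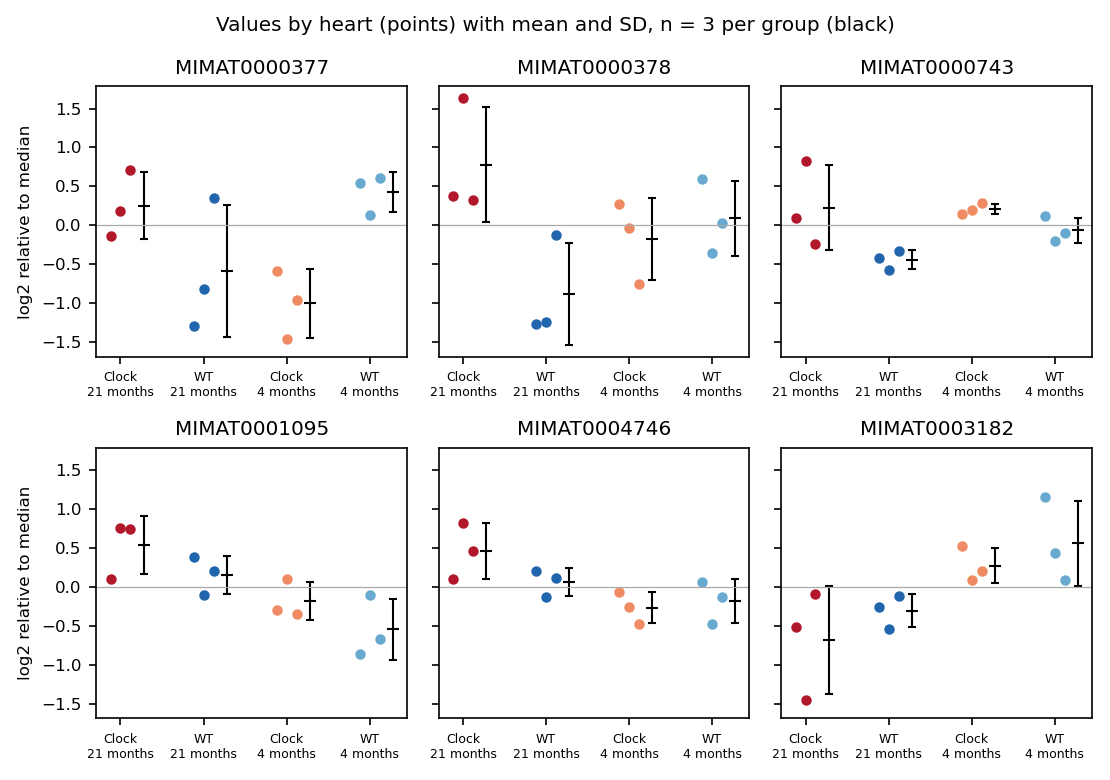
Values of 6 members in each heart (points) with the mean and SD of each group of 3 (black), in log2 units from the median of the probe set. For MIMAT0003182 all 6 hearts of 21 months lie below all 6 hearts of 4 months, and for MIMAT0000378 the 3 old Clock hearts lie above the 3 old WT hearts.

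The members were also compared with each other over the 12 hearts. Most pairs were weakly correlated. Over 703 pairs the median Pearson correlation was 0.089 (median Spearman correlation 0.063), against 0.0047 (0.0070) over all pairs of mature probe sets, and -0.0055 without Clock 21-month replicate 2. In the values as deposited, a tail of strongly correlated pairs was larger than over all probe sets. Correlations over 0.5 were found for 86 pairs (12.2%, against 6.10% of all pairs) and over 0.8 for 16 pairs (2.28%, against 0.192%). Without Clock 21-month replicate 2 these shares were 12.1% (6.93% of all) and 1.85% (0.264%). After each group's mean was taken away they were 14.7% (9.33%) and 2.13% (0.661%). With both changes they were 14.7% (10.8%) and 1.14% (0.976%). By Spearman correlation after group means were taken away they were 13.2% (8.34%) and 0.427% (0.503%). The larger share over 0.8 was thus nearly gone in the first of these 2 settings and absent in the second. Pairs share hearts and arrays and are not independent, and these shares are a description.

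A set of 7 members, picked out after the values were seen, was joined by correlations over 0.8. It held MIMAT0000139_st, MIMAT0000146_st, MIMAT0000743_st, MIMAT0000747_st, MIMAT0001090_st, MIMAT0001420_st and MIMAT0003170_st. The closest pair, MIMAT0001420_st and MIMAT0003170_st, had r = 0.956 and a Spearman correlation of 0.937 over 12 hearts. That was r = 0.912 without Clock 21-month replicate 2, 0.940 after group means were taken away, and 0.693 with both. The strongest opposite pair was MIMAT0000588_st and MIMAT0003169_st, with r = -0.882 and a Spearman correlation of -0.797. Clock 21-month replicate 2 held the lowest value of the first and the highest of the second. Without that heart no pair of members had r below -0.810.

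The 7 members were high together in Clock 21-month replicate 2, between 0.79 and 1.85 with a median of 1.07, where the other 31 had a median of 0.20. Clock 21-month replicates 1 and 3 had medians of 0.0046 and -0.29 over the 7. Their medians in WT hearts of 21 months were -0.45, -0.52 and -0.33, while the other 31 had medians of -0.034, -0.088 and 0.013 there. In young Clock hearts the 7 had medians of 0.15, 0.20 and 0.31, against 0.14, -0.094 and 0.023 in young WT hearts. All 3 old WT hearts thus had a lower median over the 7 than each of the other 9 hearts, with Clock 21-month replicate 3 the nearest at -0.29.

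For the genotype difference at 21 months the 7 members lay between 0.58 and 1.31 with a median of 0.69, and between 0.13 and 0.71 with a median of 0.31 without Clock 21-month replicate 2. At 4 months their genotype differences lay between 0.10 and 0.42. Their age differences in WT hearts lay between -0.68 and -0.26, and in Clock hearts between -0.13 and 0.41. Without Clock 21-month replicate 2 the age differences in Clock hearts lay between -0.61 and -0.18, so for these 7 members the sign of the age difference in Clock hearts turned on 1 heart for 3 of 7. The other 31 members had a median genotype difference of 0.13 at 21 months. Because the 7 were chosen for varying together, their shared direction is a consequence of that choice and carries no test.

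The joining of the 7 depended in part on the same heart. Without Clock 21-month replicate 2 the largest set joined at 0.8 again had 7 members, 5 of them from the first set. After group means were taken away it had 6, each from the first set. With both changes the largest set had 4 members, 1 of them from the first set. That array also had the largest SD over all mature probe sets (0.521), and the part of this in the correlations was not tested.

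**Figure D5:**
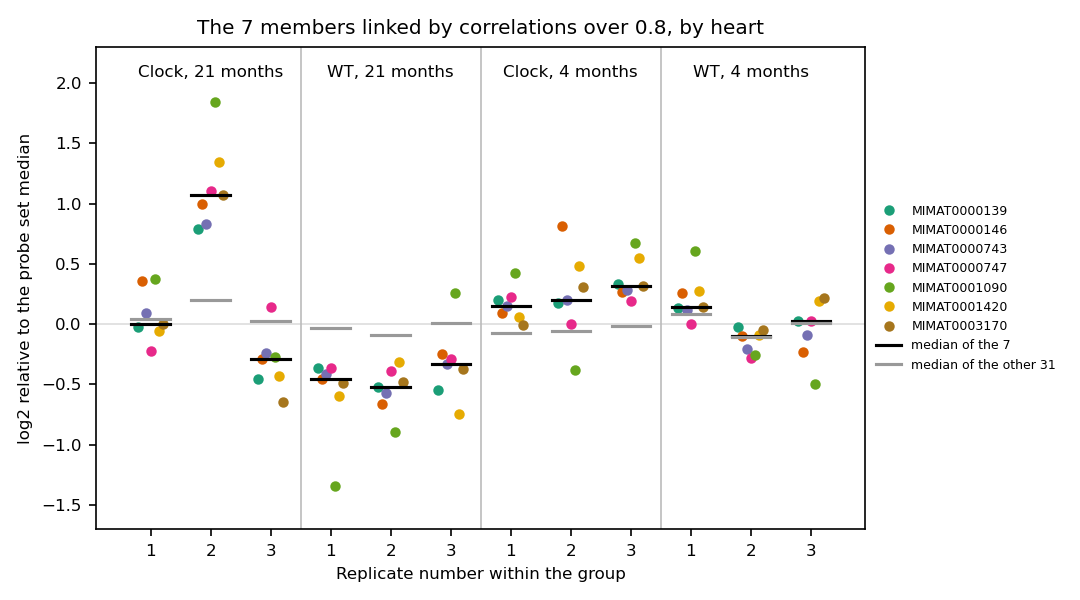
Values of the 7 joined members (coloured points) in each heart, with their median (black line) and the median of the other 31 members (grey line), as log2 relative to each probe set's median. The 7 lie highest in Clock 21-month replicate 2 (median 1.07) and lowest in the 3 WT hearts of 21 months (medians -0.45, -0.52 and -0.33).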

How the data were processed

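Per the labels, total RNA from ventricles of 12 mice was extracted with miRNeasy, and 500 ng was biotin-labelled by an Affymetrix procedure for miRNA arrays. The deposited values were taken as log2. Each of the 3163 probe sets has a median of 0 over the 12 arrays to within 1e-06, so the authors had centred them per probe set. Not given in the sources used here are the log base, the background correction and any normalization between arrays. Another base would change the folds and the counts of members for which a 2-fold change was excluded, and not the tests.

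One limma 3.58.1 model (R 4.3.3) with 4 group means was fitted to 12 arrays and 1908 mature probe sets (8 residual degrees of freedom, prior 2.82), with 7 contrasts. P-values were Benjamini-Hochberg adjusted over all mature probe sets and called under 0.05. No filter on low values was possible, and 38 of 38 members were tested. The members and lists were chosen with earlier results of these data known. Named members were those with an unadjusted p under 0.05 (at most 6, filled to 3 by p) in a contrast, shortened to 2 higher and 2 lower because IDs could not be named. For the same reason hairpin partners (among 1255 hairpin probe sets), other miRNAs of the region and cell type markers were not read out. Correlations were taken over arrays, without p. Replicates are biological per the labels. Samples that share a replicate number correlated between -0.11 and 0.12 in their deviations from group means. Samples of different number correlated between -0.20 and 0.13. Between old WT and young Clock hearts the same-number values (0.058 to 0.091) lay above the others (at most 0.050). With 3 arrays per group these values cannot settle whether the numbers mark a pairing. Precision is limited by 3 arrays per group. The alternatives tried were array weights, quantile normalization, arrays centred on their medians, a replicate block, only the groups compared, hairpins included, a threshold of 0.10, robust variances, each array left out, and 3 young arrays left out.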

Additional observations from a re-analysis of the deposited data

How the results depend on the processing

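The count of called members was 0 in each of the 7 contrasts under every alternative run (smallest adjusted p of any member 0.0681, for age averaged over genotypes with 1 array left out). The 19 named differences kept their sign and stayed uncalled in all 371 recomputed values. Counts at an unadjusted p under 0.05 moved more. With array weights the total was 2 for genotype at 4 months (1 in the fit reported), 5 for genotype at 21 months (8), 8 for age in WT (5) and 8 for age averaged over genotypes (5). With only the groups compared it was 2 for genotype at 4 months and 12 for age in WT. After quantile normalization of the centred values it was 9 for age in WT. Without 3 young arrays it was 2 for genotype at 4 months, 8 for age in WT, 2 for age in Clock and 2 for genotype averaged over ages (4). The share of all probe sets fitted moved too. Over the alternatives other than single arrays left out, it was 5.14% to 7.49% for genotype at 4 months, 4.77% to 7.18% at 21 months and 5.94% to 8.44% averaged. For age it was 5.45% to 7.18% in WT, 6.24% to 10.8% in Clock and 7.23% to 12.4% averaged. Leaving out each array gave 1 to 2 for genotype at 4 months (4.45% to 7.6% of all), 3 to 9 at 21 months (4.4% to 7.65%) and 2 to 8 averaged (5.56% to 8.07%). For age it gave 0 to 10 in WT (4.93% to 6.71% of all), 3 to 6 in Clock (7.76% to 10.6%) and 4 to 8 averaged (9.07% to 11.7%). For the interaction it gave 2 to 6 (3.3% to 5.66% of all). The replicate block gave 8 for genotype at 21 months and 5 for age in WT, as without it, and changed no call. Whether the replicate numbers it used pair the samples is not known. The median correlation between members was 0.121 without the 3 young arrays, and with single arrays left out it ranged between -0.0055 (Clock 21-month replicate 2 left out) and 0.115. The cause of these moves was not tested, and signal over background is unknown. Quantile normalization acted on values already centred per probe set, so it cannot show the effect of another normalization of intensities.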
